A study of Homo sapiens with 6 samples.

Results

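The genes of the cereblon ubiquitin ligase and of 3 Ikaros family transcription factors were examined in KMS27 cells with and without HA-TAZ. They are CRBN, DDB1, CUL4A, CUL4B and RBX1 for the ligase, and IKZF1, IKZF2 and IKZF3 for the transcription factors, 8 genes of 63677 gene IDs. The members were taken by gene symbol, and the TPM of their 109 transcripts was summed per gene ID. TPM is an abundance corrected for transcript length and stated as a share of a library. KMS27 is an established human multiple myeloma line, a line of malignant plasma cells. Total RNA depleted of ribosomal RNA was sequenced in 3 libraries of wild type KMS27 cells and 3 libraries of KMS27 cells overexpressing HA-TAZ, which is the coactivator TAZ with an HA peptide tag. No drug treatment, time point or further allele is given in the labels for either group. The vector, the promoter that drives HA-TAZ, and whether the cells are 1 clone are not given in the sources used here. The comparison asked how the RNA of the cereblon ligase and its targets differed when TAZ was overexpressed, in cells that the labels do not describe as treated with a cereblon-binding drug.

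The 3 control columns are named with "scr", a name that no label explains. The labels describe 3 wild type samples and no other group without TAZ, so these columns were read as the wild type libraries. Sample titles of the wild type group hold HA, and what this stands for is not given. They are named control a, b and c, because which column is which sample is not given. WWTR1, which encodes TAZ, was at 293 TPM or more in each HA-TAZ library and at 2.69 TPM or less in each control, so the columns separated as labelled. TPM carries no depth, and the depth of each library was unknown. The means in the authors' deposited table imply from 386 estimated counts for IKZF2 to 16493 for DDB1 in a typical library. Nothing in the labels says that the libraries of a group came from separate cultures, so p-values measure only the spread between these libraries, which may be technical. Fewer cells of a type and less RNA per cell cannot be told apart in such bulk samples.

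Cereblon, the product of CRBN, is a substrate receptor. DDB1 links it to the cullin scaffold, CUL4A or the related CUL4B, and the RING protein RBX1 brings the ubiquitin-charged E2 enzyme to the other end of the scaffold. Thalidomide, lenalidomide and pomalidomide bind cereblon and make it recognise IKZF1 (Ikaros) and IKZF3 (Aiolos), which are then ubiquitinated and degraded. Both are zinc finger transcription factors of lymphocytes and plasma cells, and myeloma cells depend on them. Loss of cereblon is a known route to resistance against these drugs. IKZF2 (Helios) is a related factor best known from regulatory T cells. These steps act on protein, and the values below are RNA.

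The element that the drug-bound receptor recognises lies in the second zinc finger of IKZF1 and IKZF3. The coding bases of this finger are shown because they mark what separates IKZF2 from the other 2 factors, and because transcripts that lack the finger lack the element. They were read 5′ to 3′ on the coding strand from GENCODE release 29 transcripts on GRCh38. The second codon is in capitals. That of IKZF1 lies at chr7:50382551-50382619 on the plus strand, in coding exon sequence of exon 5 of ENST00000331340. The IKZF2 sequence lies at chr2:213049801-213049869 on the minus strand, in exon 6 of ENST00000434687. For IKZF3 the position is chr17:39791504-39791572 on the minus strand, in exon 5 of ENST00000346872.
IKZF1 finger 2: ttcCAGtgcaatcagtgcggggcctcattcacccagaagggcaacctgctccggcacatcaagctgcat
IKZF3 finger 2: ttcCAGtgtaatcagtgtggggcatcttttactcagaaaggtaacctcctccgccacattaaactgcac
IKZF2 finger 2: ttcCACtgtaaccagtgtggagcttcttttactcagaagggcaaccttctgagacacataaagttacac
Over these 69 bases IKZF3 differed from IKZF1 at 13 positions (81.2% identity), and none of the 23 codons encodes another amino acid. IKZF2 differed from IKZF1 at 17 positions (75.4% identity), and 1 codon encodes another amino acid. That is the codon in capitals, where the substitution is G6C, with positions counted from 1 at the first base printed. As background, CAG encodes glutamine and CAC histidine, and the histidine of IKZF2 is known to weaken its recognition by cereblon with these drugs.

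None of the 8 genes passed the test between HA-TAZ and wild type libraries, in either direction. The test was limma on log2(scaled TPM + 1), where scaled TPM is TPM divided by a median-of-ratios factor per library, with Benjamini-Hochberg adjustment over the 22651 genes that averaged at least 1 TPM, and a threshold of 0.05. All 8 genes passed this filter. Of all genes tested, 7.29% were called, 4.67% higher and 2.63% lower in HA-TAZ. At an unadjusted p-value under 0.05, CUL4A, IKZF2 and IKZF3 were higher and no member was lower, where 16.6% of all tested genes were higher and 14.1% lower by the same rule. The median log2 fold change was 0.11 over the 8 genes, −0.03 over all tested genes and 0.06 over the tested protein-coding genes. Every fitted member difference lay between −0.10 (IKZF1) and 0.26 (IKZF2) on this log2 scale. After scaling, 4 members were higher in HA-TAZ and 1 was lower with no overlap between the groups. Of all tested genes, 38.5% had no overlap, 20.2% higher and 18.3% lower. Of 11666 tested protein-coding genes, 3666 were higher and 1632 lower without overlap.

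The direction of these small differences depended on the scaling. The factors of HA-TAZ libraries lay between 0.866 and 0.967 and those of controls between 1.06 and 1.21. With TPM as deposited, the median over all tested genes was −0.27 and that over the 8 members −0.18. As deposited, CRBN, CUL4A, CUL4B, RBX1 and IKZF1 were lower in HA-TAZ with no overlap, where 43.6% of all tested genes were. No member was higher without overlap as deposited, where 4.41% of all tested genes were. DDB1, IKZF2 and IKZF3 overlapped. CRBN, DDB1, CUL4A, RBX1 and IKZF3 had positive fold changes after scaling and negative ones as deposited. IKZF1 and CUL4B were negative and IKZF2 positive both ways.

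**Figure D1:**
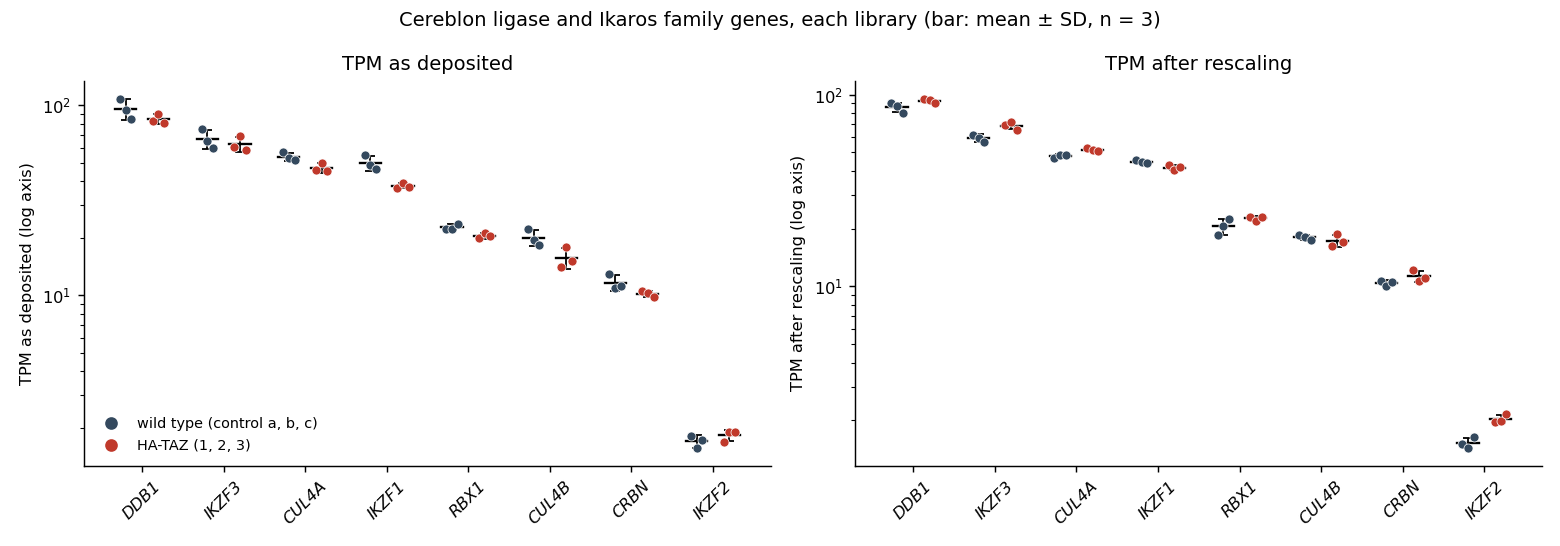
TPM as deposited (left) and after rescaling (right) of the 8 genes on log axes, 1 point per library, with HA-TAZ and wild type libraries in separate colours and bars for the mean ± SD (n = 3). DDB1 was highest and IKZF2 lowest in every library, and the groups lie close together for each gene on both scales.

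In TPM, which allows genes to be compared per length, the levels ran in the order DDB1, IKZF3, CUL4A, IKZF1, RBX1, CUL4B, CRBN, IKZF2. Each gene was above its next neighbour in 6 of 6 libraries. The ranges over the 6 libraries overlapped for the neighbours CUL4A and IKZF1 and for RBX1 and CUL4B, and for no other neighbours. The receptor CRBN was thus the least abundant RNA of the ligase, and IKZF2 the least abundant of the transcription factors.

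CRBN (ENSG00000113851), the substrate receptor, was at 10.5, 10.3 and 9.81 TPM in HA-TAZ 1, 2 and 3, and at 12.9, 11.0 and 11.1 TPM in control a, b and c. After scaling these values were 12.2, 10.7 and 11.0 against 10.7, 10.1 and 10.5. All 3 HA-TAZ libraries were below the controls as deposited, whereas the scaled groups overlapped. The log2 fold change was 0.10 (SE 0.07, 95% interval −0.07 to 0.27, limma adjusted p = 0.366). With TPM as deposited it was −0.17 (limma, adjusted p = 0.184), so neither direction was called, and over all 15 alternatives the adjusted p ran from 0.184 to 0.752. Of its 4 tested transcripts, the coding ENST00000231948.4 was at −0.09 after scaling (limma, adjusted p = 0.683). The others, ENST00000498700.1, ENST00000491834.1 and ENST00000478353.1, have retained introns. They were at 0.33, −0.18 and 0.19 (limma, adjusted p = 0.209, 0.349 and 0.677).

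DDB1 (ENSG00000167986), the adaptor between receptor and cullin, was at 82.4, 90.3 and 80.7 TPM in HA-TAZ libraries and 108.7, 94.8 and 84.8 TPM in controls. Scaled, it was at 95.2, 93.4 and 90.7 against 89.9, 87.0 and 80.2. The HA-TAZ libraries were above the controls only after scaling. The log2 fold change was 0.12 (SE 0.05, 95% interval −0.02 to 0.25, limma adjusted p = 0.200), and −0.18 with TPM as deposited.

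CUL4A (ENSG00000139842) and CUL4B (ENSG00000158290) are alternative scaffolds of the ligase. CUL4A was at 45.5, 49.9 and 45.3 TPM in HA-TAZ libraries and 56.7, 52.7 and 51.3 TPM in controls, which became 52.5, 51.6 and 50.9 against 46.9, 48.3 and 48.5 after scaling. The 2 groups did not overlap on either scale, but HA-TAZ was lower as deposited and higher after scaling. The log2 fold change was 0.11 (SE 0.04, 95% interval 0.01 to 0.20, limma adjusted p = 0.131), and −0.19 as deposited. CUL4B was at 14.0, 18.1 and 15.2 TPM against 22.3, 19.6 and 18.4 TPM, and at 16.2, 18.7 and 17.1 against 18.5, 18.0 and 17.4 after scaling. Its scaled groups overlapped, and the log2 fold change was −0.05 (SE 0.07, 95% interval −0.22 to 0.11, limma adjusted p = 0.630).

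RBX1 (ENSG00000100387), the RING subunit shared with other cullin ligases, was at 19.9, 21.2 and 20.5 TPM in HA-TAZ libraries and 22.4, 22.5 and 23.8 TPM in controls. The scaled values of 23.0, 22.0 and 23.0 against 18.5, 20.6 and 22.5 overlapped. Its log2 fold change was 0.14 (SE 0.08, 95% interval −0.05 to 0.33, limma adjusted p = 0.274), and −0.15 as deposited.

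IKZF1 (ENSG00000185811) was at 37.0, 39.1 and 37.2 TPM in HA-TAZ libraries and 55.0, 48.6 and 46.3 TPM in controls, with means of 37.7 ± 1.16 and 49.9 ± 4.51 TPM (SD, n = 3 each). After scaling it was at 42.7, 40.4 and 41.8 against 45.5, 44.5 and 43.8. On both scales all 3 HA-TAZ libraries lay below all 3 controls. The log2 fold change was −0.10 (SE 0.04, 95% interval −0.20 to 0.01, limma adjusted p = 0.185). IKZF1 passed the threshold as lower under 2 other scalings. It was at −0.39 with TPM as deposited (limma, adjusted p = 0.0365) and at −0.16 with TPM renormalised over protein-coding genes (limma, adjusted p = 0.0462). As deposited, 3329 of 22651 tested genes were called, 7.84% of these higher, and the median over all tested genes was −0.27. With protein-coding genes only, 2750 of 12920 were called, 54.4% of these higher. IKZF1 was the only member called under any alternative run. In scaled means, the gene was at 41.6 with HA-TAZ and 44.6 in controls, and its transcript ENST00000359197.5 at 0.40 and 4.68. This transcript thus differed by more than the gene sum, so the remaining scaled TPM of IKZF1 was not lower in HA-TAZ on average. IKZF1 was not tested without this transcript.

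IKZF3 (ENSG00000161405) was at 60.3, 69.2 and 58.3 TPM in HA-TAZ libraries and 74.8, 65.0 and 59.5 TPM in controls, with overlap. Scaled values were 69.7, 71.6 and 65.6 against 61.8, 59.6 and 56.3, with every HA-TAZ library above every control. Its log2 fold change of 0.22 (SE 0.06, 95% interval 0.08 to 0.35) came closest of the 8 genes to the threshold (limma, adjusted p = 0.0698). It was −0.081 with TPM as deposited.

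IKZF2 (ENSG00000030419) was low in all libraries. Its TPM was 1.69, 1.92 and 1.91 in HA-TAZ libraries and 1.82, 1.57 and 1.72 in controls, with overlap. The scaled values were 1.96, 1.98 and 2.14 against 1.51, 1.44 and 1.63, without overlap. The log2 fold change was 0.26 (SE 0.09, 95% interval 0.03 to 0.49, limma adjusted p = 0.128). The pseudocount of 1 is close to this level and understates its fold change.

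**Figure D2:**
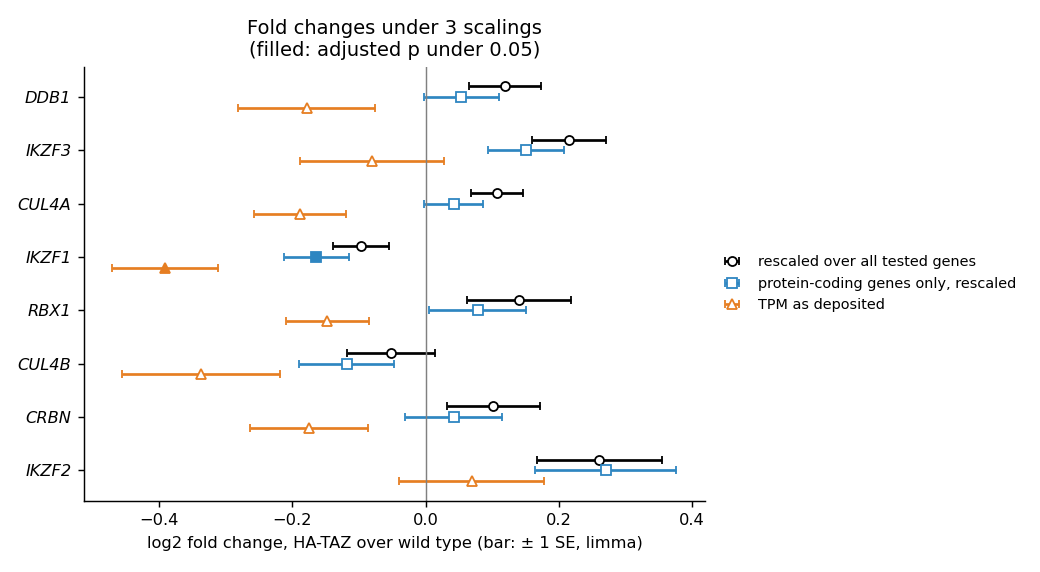
Log2 fold change of HA-TAZ over wild type (x axis) for each gene (y axis) under 3 scalings, with bars of 1 standard error from limma and filled symbols for an adjusted p-value under 0.05. CRBN, DDB1, CUL4A, RBX1 and IKZF3 change sign between the rescaled values and TPM as deposited, and IKZF1 is negative under all 3 scalings and filled under 2 of them.

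Ratios between members within a library do not depend on the scaling between libraries, and 4 were computed. The ratio of IKZF1 to IKZF3 TPM was 0.613, 0.564 and 0.637 in HA-TAZ libraries and 0.735, 0.747 and 0.778 in controls. All HA-TAZ libraries were below all controls, with means of 0.605 ± 0.0371 and 0.753 ± 0.0219 (SD, n = 3 each), a log2 difference of −0.32. An exact permutation test, two-sided, returned p = 0.1, the smallest that 3 against 3 libraries allow, and 0.4 after Benjamini-Hochberg adjustment over the 4 ratios, so this design could not pass 0.05. The log2 difference stayed between −0.36 and −0.27 when any 1 library or all transcripts below 1 TPM were left out. All of these alternatives kept ENST00000359197.5 in the IKZF1 sum, a transcript with scaled means of 0.40 (HA-TAZ) and 4.68 (control). The ratio was not computed without this transcript, so whether the groups would still separate was not tested. The IKZF1 to IKZF3 ratio shows unequal differences of these gene sums and not which of them moved.

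The other 3 ratios overlapped between the groups. CUL4A to CUL4B was 3.24, 2.76 and 2.98 in HA-TAZ libraries and 2.54, 2.68 and 2.79 in controls (log2 difference 0.16, exact permutation p = 0.2). The summed RNA of both drug targets, IKZF1 plus IKZF3, was 9.24, 10.5 and 9.74 times that of CRBN in HA-TAZ libraries and 10.03, 10.4 and 9.49 times in controls (log2 difference −0.02, exact permutation p = 0.8). CRBN to DDB1 was 0.128, 0.114 and 0.122 against 0.119, 0.116 and 0.131 (log2 difference −0.01, exact permutation p = 0.9). For the last 2 ratios the group means lay closer together than 1 SD of either group. The ratios use sums over all transcripts. Those typed as coding held means of 46.2% (HA-TAZ) and 50.6% (control) of CRBN TPM. The same means were 82.0 and 81.5% for IKZF1 and 99.4 and 99.5% for IKZF3. Ratios of coding-typed RNA alone were not computed.

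**Figure D3:**
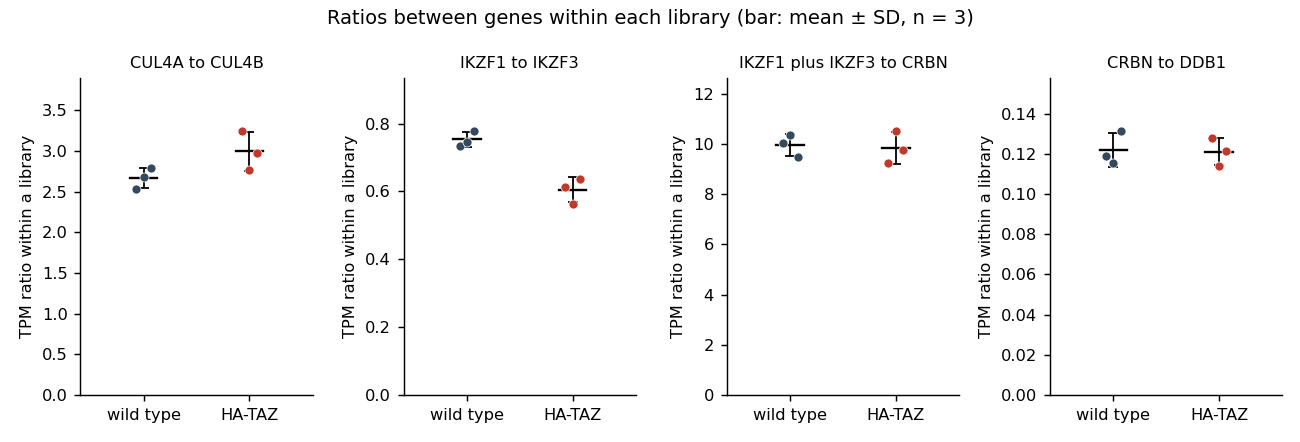
TPM ratio within a library (y axes from 0) for 4 pairs of members, 1 point per library by group, with bars for the mean ± SD (n = 3). The IKZF1 to IKZF3 ratio lies at 0.564 to 0.637 with HA-TAZ and at 0.735 to 0.778 in the controls, and the other 3 ratios overlap. The IKZF1 sums include ENST00000359197.5, and no ratio was computed without it.

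The transcripts of the members were tested next, by the same model over 57448 transcripts with a mean of at least 1 TPM. Of the 109 member transcripts, 40 reached this level, none of them from IKZF2. A single one was called, an IKZF1 transcript that was lower in HA-TAZ, where 0.534% of all tested transcripts were called and 0.103% were called lower. At an unadjusted p-value under 0.05, 4 of the 40 member transcripts were higher and 7 lower, where 13.1% of all tested transcripts were higher and 11.1% lower. In the authors' deposited table, which holds a Wald test by sleuth, 80 member transcripts were tested. Of these, 3 had a q-value under 0.05, all with a positive effect, where the authors' deposited table has 5.68% of 109487 transcripts under 0.05 and 4.08% with a positive effect.

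Those 3 were the main transcript of DDB1, the main transcript of IKZF3 and the full-length IKZF1 transcript. For DDB1 ENST00000301764.7 the authors' deposited table gives an effect of 0.30 on a natural log scale (q = 7.95e-09). In TPM this transcript was at 48.4, 50.5 and 48.1 in HA-TAZ libraries and 45.2, 46.2 and 45.4 in controls, higher in HA-TAZ even before scaling, with a log2 fold change of 0.40 (limma, adjusted p = 0.0825). IKZF3 ENST00000346872.3 held 84.4% of the gene's TPM. The authors' deposited table gives it an effect of 0.20 (q = 0.00246), and the fit here a log2 fold change of 0.26 (limma, adjusted p = 0.124). IKZF1 ENST00000331340.3 has an effect of 0.27 in the authors' deposited table (q = 0.0402). Its TPM was 11.8, 10.6 and 10.1 in HA-TAZ libraries and 10.8, 11.0 and 9.27 in controls, with overlap, and its log2 fold change was 0.34 (limma, adjusted p = 0.147).

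The IKZF1 gene sum thus combined transcripts that differed in opposite directions. The called transcript ENST00000359197.5 was at 0.112, 0.822 and 0.202 TPM in HA-TAZ libraries and 7.67, 4.18 and 4.09 TPM in controls. Every HA-TAZ library was below 1 TPM and every control above 4 TPM. The transcript thus passed the filter of a mean of 1 TPM only through the controls. Its log2 fold change was −2.03 (SE 0.26, limma, adjusted p = 0.0459). Of the 10 tested IKZF1 transcripts, 2 were higher and 4 lower at an unadjusted p-value under 0.05. Besides the called one, the lower ones were ENST00000343574.5, ENST00000492782.1 and ENST00000492119.1, at −0.47, −0.45 and −0.40 (limma, adjusted p = 0.165, 0.199 and 0.174). ENST00000343574.5, which keeps finger 2 and the fourth finger, was at 3.19, 5.57 and 4.76 TPM against 9.21, 8.25 and 6.54 TPM, without overlap. For ENST00000359197.5 the call was lost in each of the 10 alternatives in which it was tested, with adjusted p-values of 0.0531 to 0.183, although the fold change stayed between −3.49 and −1.80. The authors' deposited table gives a natural log effect of −2.72 (SE 1.27) and q = 0.238.

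Transcripts of IKZF1 overlap in sequence, which limits how well reads can be assigned to one of them. ENST00000359197 and ENST00000439701 have the same coding sequence of 1431 bases in GENCODE release 29. Both skip exon 6 of the full-length transcript, 126 bases that hold the fourth zinc finger, and they differ in the first exon and at the 3′ end. They are 3487 and 3614 bases long and the full-length ENST00000331340 6255 bases, so they differ from it by more than exon 6. The junctions are shown because they mark whether exon 6 is kept or skipped, with 15 bases on each side and the right-hand exon in capitals.
Exon 6 kept: tgaggacgcactccgTTGGTAAACCTCACA
Exon 6 skipped: tgaggacgcactccgTCATTAAAGAAGAAA
ENST00000439701.1 was at 9.27, 9.36 and 7.68 TPM in HA-TAZ libraries and 7.71, 8.17 and 8.14 TPM in controls, and its log2 fold change was 0.38 (limma, adjusted p = 0.127), opposite in sign to that of ENST00000359197.5. Their sum was 9.38, 10.2 and 7.88 TPM against 15.4, 12.3 and 12.2 TPM. Scaled, the sum was at 10.8, 10.5 and 8.86 against 12.7, 11.3 and 11.6, lower in HA-TAZ without overlap (log2 difference −0.24). The difference in the sum was thus smaller than that of the called transcript alone.

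Grouped by this exon, a grouping chosen after the values were seen, transcripts without exon 6 made up 37.2, 38.8 and 34.2% of the IKZF1 TPM that carries finger 2 in HA-TAZ libraries, and 44.5, 39.4 and 44.3% in controls. The share was lower in all 3 HA-TAZ libraries, but this rested on the called transcript. Without ENST00000359197.5 the shares were 36.9, 37.0 and 33.7% against 30.5, 30.6 and 36.0%, which overlapped, with the higher mean in HA-TAZ. Coding transcripts that carry finger 2, and with it the drug-recognised element printed above, held 71.6, 72.5 and 67.8% of IKZF1 TPM against 68.9, 67.9 and 67.8%, with overlap. In IKZF3 the share with finger 2 was 90.9, 91.8 and 90.5% against 88.8, 88.9 and 87.9%, higher in HA-TAZ without overlap. In IKZF2 it was 52.5, 49.5 and 49.3% against 43.7, 51.3 and 50.7%, with overlap. A share with finger 2 has no background over all genes, so the IKZF3 difference cannot be set against one. For a different share, that of TPM typed as coding, 23.8% of 9987 genes were higher in HA-TAZ without overlap.

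**Figure D4:**
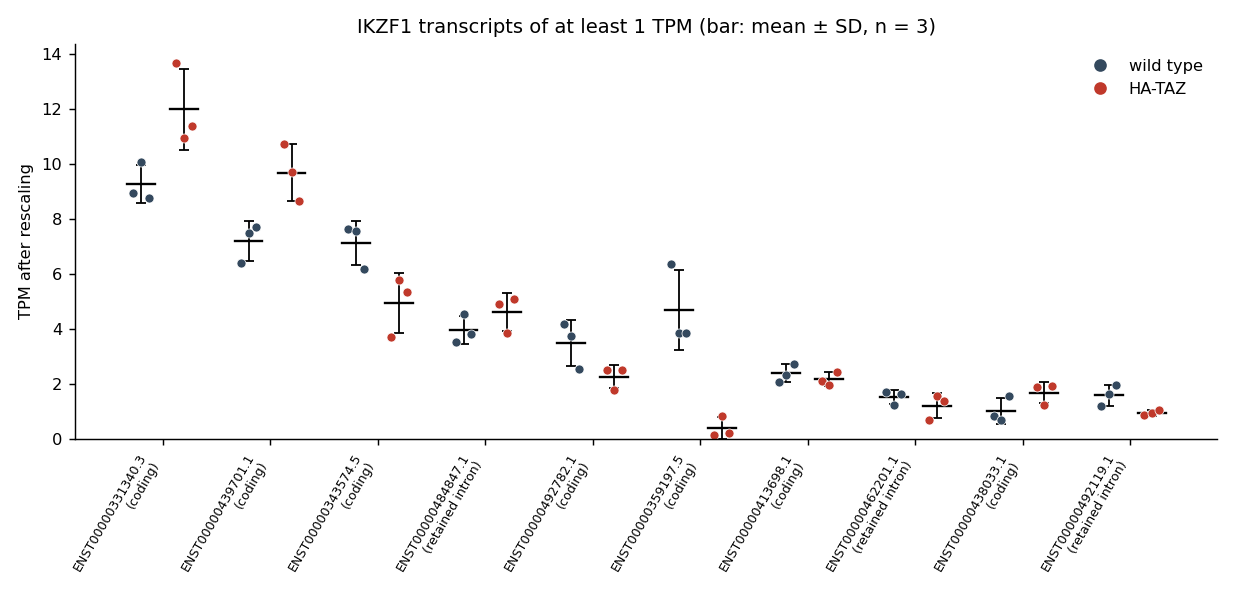
Scaled TPM (y axis) of the 10 IKZF1 transcripts with a mean of at least 1 TPM (x axis, with GENCODE type), 1 point per library by group, with bars for the mean ± SD (n = 3). ENST00000359197.5 is near 0 in HA-TAZ libraries, while ENST00000331340.3 and ENST00000439701.1 are higher in HA-TAZ than in controls after scaling. As deposited, the latter pair overlaps between the groups.

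A pair of start regions accounts for most IKZF1 transcripts measured, and this grouping was also chosen after the values were seen. The 8 measured transcripts that start within 100 bases of the first site held 47.1, 50.8 and 48.3% of the gene's TPM in HA-TAZ libraries and 57.7, 55.2 and 52.9% in controls. The 4 at the second site held 36.9, 35.3 and 34.6% against 28.8, 29.5 and 30.7%. The share of the first site was lower and that of the second higher in all 3 HA-TAZ libraries. Without ENST00000359197.5, which starts at the first site, the share of that site was 46.9, 49.8 and 48.0% of the remaining TPM against 50.9, 50.9 and 48.3%, with overlap. The share of the second site was then 37.0, 36.1 and 34.8% against 33.5, 32.2 and 33.7%, a smaller difference still without overlap. ENST00000439701.1 belongs to the second site. The full-length ENST00000331340.3, at the first site, had a positive fold change, unlike its group.
The 2 regions are shown 5′ to 3′ on the plus strand from RefSeq on GRCh38.p14, at chr7:50304596-50304735 and chr7:50308580-50308719, each with 120 bases before the start and the first 20 transcribed bases in capitals.
First start: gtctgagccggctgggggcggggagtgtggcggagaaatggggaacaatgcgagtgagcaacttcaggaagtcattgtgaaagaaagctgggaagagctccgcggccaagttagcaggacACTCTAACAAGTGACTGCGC
Second start: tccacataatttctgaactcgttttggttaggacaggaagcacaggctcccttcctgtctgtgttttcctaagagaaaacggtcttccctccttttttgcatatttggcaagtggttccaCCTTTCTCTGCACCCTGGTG
TAZ reaches DNA through TEAD factors, whose core motif is GGAATG. The motif was searched on both strands, as GGAATG or CATTCC, in 300-base windows from 250 bases before to 50 after each RefSeq start. It was in 14.0% of 35116 windows of all genes, and in 1 of 17 windows of the 7 members that have any, a window of IKZF2. Such a match is a description of letters and not a binding site.

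The part of a gene's TPM in transcripts typed as coding was compared as well, after the values were seen, since total RNA also holds transcripts with retained introns. In DDB1 it was 60.6, 58.6 and 63.2% in HA-TAZ libraries and 44.1, 52.5 and 57.1% in controls. In CUL4A it was 79.3, 78.0 and 78.7% against 71.3, 75.6 and 71.4%. Both were higher in HA-TAZ without overlap, and the other 6 members overlapped. Of 9987 genes examined in the same way, 23.8% were higher without overlap and 3.83% lower, so 2 of 8 members is close to the share of all genes.

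Genes that act around the ligase were then counted from lists, with 7.29% of all tested genes called as the background, and 16.6% higher and 14.1% lower at an unadjusted p-value under 0.05. In a list of neddylation and CUL4 control, 28 of 29 genes were tested. Many of their products attach NEDD8 to cullins, remove it or exchange substrate receptors, and the list also holds other genes, among them UBE2D3. The 2 called were both higher, and the median log2 fold change was 0.14. At an unadjusted p-value under 0.05, 13 were higher and 0 lower. After scaling, 14 were higher and 0 lower without overlap, where 20.2% of all tested genes were higher and 18.3% lower. Of 11666 tested protein-coding genes, 3666 were higher and 1632 lower without overlap. As deposited, the median over the list of neddylation and CUL4 control was −0.15. NEDD8, the modifier itself, averaged 98.0 ± 6.41 TPM with HA-TAZ and 91.8 ± 3.65 TPM without (SD, n = 3 each, log2 fold change 0.39, limma adjusted p = 0.0342). UBE2M, the E2 enzyme that transfers it, was at 63.2 ± 4.07 and 62.2 ± 3.49 TPM (SD, n = 3 each, log2 fold change 0.32, limma adjusted p = 0.0196). As deposited, neither was called, at 0.09 and 0.02. UBE2D3, an E2 enzyme and the most abundant gene of the list, had a log2 fold change of 0.01 (limma, adjusted p = 0.979). DCUN1D5 was listed at 0 in every library.

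Other substrate receptors that work with CUL4 and DDB1 gave no call among 23 tested genes (limma; 4 higher and 2 lower at an unadjusted p-value under 0.05), with a median of 0.05. DCAF8 was the most abundant of them, at −0.05 (limma, adjusted p = 0.554). The 6 other cullins gave no call either (limma; 2 higher at an unadjusted p-value under 0.05), with a median of 0.04, and the most abundant, CUL3, was at −0.04 (limma, adjusted p = 0.615). Proteins known to be degraded through cereblon with a drug were represented by 18 tested of 21 listed genes, of which 1 was called higher and 1 lower (5 higher and 2 lower at an unadjusted p-value under 0.05), with a median of 0.07. CSNK1A1, which encodes the casein kinase that lenalidomide directs to cereblon, was higher at 0.25 (limma, adjusted p = 0.0382) but at −0.05 and not called as deposited. ARID2, a subunit of a chromatin remodelling complex, fell to 22.0 ± 2.81 TPM in HA-TAZ libraries from 33.6 ± 2.39 TPM in controls (SD, n = 3 each, log2 fold change −0.30, limma adjusted p = 0.0426). GSPT1, a translation termination factor and the most abundant of the list, was at 0.19 (limma, adjusted p = 0.0648). The further Ikaros family genes IKZF4 and IKZF5 were at 0.11 and −0.20, and neither was called (limma, adjusted p = 0.803 and 0.206).

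Of 6 proteins linked to cereblon without a drug, 2 were called higher (3 higher and 1 lower at an unadjusted p-value under 0.05), and the median was 0.05. KCNMA1, a potassium channel subunit that cereblon binds, was at 2.22, 2.66 and 2.21 TPM in HA-TAZ libraries and 0.337, 0.628 and 0.422 TPM in controls. This was the largest difference in any of the ligase lists, at 1.35 on the log2 scale (SE 0.12, limma adjusted p = 0.00887), and it was called in 4 of the 6 fits that left out 1 library. Every control was below 1 TPM, so KCNMA1 passed the filter of a mean of 1 TPM only through the HA-TAZ libraries. BSG, or CD147, a surface protein whose maturation cereblon promotes, was at 124 ± 1.26 and 122 ± 0.296 TPM (SD, n = 3 each, log2 fold change 0.32, limma adjusted p = 0.0469), and was at 0.02 and not called as deposited. NEDD8, UBE2M, CSNK1A1, ARID2 and BSG kept their call in 0 of the 6 fits that left out 1 library.

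Ikaros factors act through chromatin complexes, and none of 17 genes of the NuRD, SIN3 and CTBP complexes was called by limma, with a median of 0.10. At an unadjusted p-value under 0.05, 7 were higher and 0 lower, where 16.6% of all tested genes were higher and 14.1% lower. RBBP4 was the most abundant and was at 0.30 (limma, adjusted p = 0.0536). Of 4 genes known to respond to IKZF1 and IKZF3, IL2 was listed at 0 in every library. IRF4 and MYC, which fall in myeloma cells when both factors are degraded, were at −0.13 and 0.18 (limma, adjusted p = 0.334 and 0.0859). CD38, a surface antigen of plasma cells, fell from 18.5, 19.5 and 18.3 TPM in controls to 8.62, 11.0 and 9.59 TPM in HA-TAZ libraries (log2 fold change −0.61, limma adjusted p = 0.0226). It kept this call in 1 of 6 fits that left out 1 library.

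**Figure D5:**
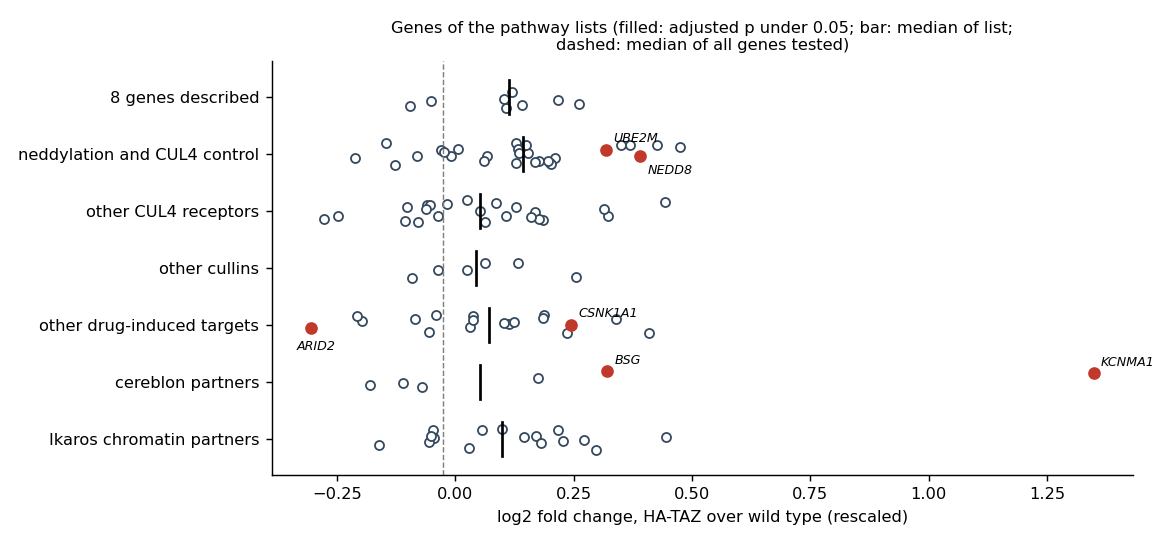
Log2 fold change of HA-TAZ over wild type after rescaling (x axis) for the genes of each list (rows), with filled points for an adjusted p-value under 0.05, bars for the median of a list and a dashed line for the median of all tested genes. No point is filled among the 8 genes described, and KCNMA1 stands farthest from 0. KCNMA1 passed the filter only through the HA-TAZ libraries. As deposited, CSNK1A1 is at −0.05 and the median of each list shown is below 0.

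Markers of cell identity were compared because IKZF1 and IKZF3 are themselves lineage factors. The summed TPM of 9 plasma cell markers, as deposited, was 2785 to 3217 with HA-TAZ against 4270 to 4825 in the controls. Most of it came from JCHAIN, which was at −0.33 after scaling (limma, adjusted p = 0.0654). The median log2 fold change of the 9 was −0.35 as deposited and −0.05 after scaling. Over all tested genes these medians were −0.27 and −0.03. All 9 passed the filter, and of them SLAMF7 was called higher (log2 fold change 0.95, limma adjusted p = 0.0128) and CD38 lower. Summed markers of other cell types, also as deposited, were low. They were at 1.26 to 1.40 against 2.15 to 2.42 TPM for 4 T cell genes and 1.68 to 1.93 against 1.91 to 2.20 TPM for 4 myeloid genes. For 4 epithelial and stromal genes they were at 3.75 to 4.65 against 4.93 to 6.37 TPM. None of these 12 genes was called (limma, none at an unadjusted p-value under 0.05), and only CD3G, CSF1R, KRT8 and COL1A1 passed the filter. The file lists CD3D at 0 in each HA-TAZ library and in control a, and MPO at 0 in each library but HA-TAZ 3. Whether these differences bear on the values of IKZF1 or IKZF3 was not tested.

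The genes whose log2(scaled TPM + 1) followed a member most closely over the 6 libraries were taken from 12612 genes with a mean of at least 5 TPM, as a description. The 6 libraries share the group difference and the scaling factors, and many genes give high values over so few points. For CRBN they were ZNF580, GSDMD and GTDC1, with Pearson r of 0.992, 0.981 and 0.979. For IKZF1 they were POLR2J4, TANGO6 and RBM47, at 0.994, 0.993 and 0.991. For IKZF3 they were ELMO2, E2F3 and B4GALT5, at 0.998, 0.995 and 0.995.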

How the data were processed

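The authors quantified transcripts with kallisto 0.46.0 and tested them with sleuth 0.30.0, and named the build GRCh37, per the submitters' processing notes. The deposited TPM values are given for 215170 transcripts and add up to the same total in each library. The deposited table of the authors' comparison holds p-values and q-values, and its effects and means are on a natural log scale, per the file headers. The use of strand in quantification is not given in the sources used here, which leaves overlapping and antisense genes uncertain, and reads shared by near-identical transcripts are split by estimation.

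TPM was summed per gene ID. Libraries were scaled by median-of-ratios factors over 21512 genes that averaged at least 1 TPM and were above 0 in all libraries. Genes and transcripts averaging at least 1 TPM were tested with limma (intensity trend, pseudocount 1, two-sided, Benjamini-Hochberg, threshold 0.05), and fold changes are on the log2(scaled TPM + 1) scale, which understates low genes. Transcripts used the gene-level factors. Ratios between genes used exact two-sided permutation tests. In simulated data for HA-TAZ against wild type over 22167 genes, 24.0% of 50 genes raised by 0.5 on the log2 scale and 58.0% of 50 raised by 1 were called. So were 16.7% of 48 lowered by 0.5 and 64.1% of 39 lowered by 1. Only 200 genes were changed there before filtering, while 1652 genes were called in the libraries. These rates therefore do not give the sensitivity of the real test. Member transcripts were matched to GENCODE release 29 (GRCh38) by ID without version, so structures may differ from those quantified, and 4 had no type there. The RefSeq promoter table held windows for 7 of the 8 genes.

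Members and lists were chosen with earlier results of these data known. All 8 members are named, and from each other list the genes that passed (up to 6) and the most abundant gene, and for CRBN, IKZF1 and IKZF3 the 3 genes most like them. The alternatives changed the pseudocount, the filter, the scaling, the variance model, the gene sum and the libraries included. Leaving the called IKZF1 transcript out of the IKZF1 shares was added after the data were seen, and shares of transcripts were compared without a test. Shares by finger 2, exon 6 or start site have no background over all genes. Software was Python 3.11.15 with pandas 2.3.3, numpy 2.4.6, Biopython 1.88 and matplotlib 3.10.9, and limma 3.58.1 in R 4.3.3.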

Additional observations from a re-analysis of the deposited data

How the results depend on the processing

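No paired analysis was possible because the control columns cannot be tied to numbered wild type samples. No member was called higher under any of 15 alternatives, and the count called lower went from 0 to 1 (IKZF1) with TPM as deposited and with protein-coding genes only. Leaving out 1 library gave 0 to 0 in either direction. With TPM as deposited, log2 fold changes reversed to −0.17 for CRBN, −0.18 for DDB1, −0.19 for CUL4A, −0.15 for RBX1 and −0.081 for IKZF3. Under the filter of 5 TPM, IKZF2 was not tested.

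Of all genes, 1652 were called, 64.0% of them higher. The deposited TPM gave 3329, of which 7.84% were higher. Protein-coding genes alone gave 2750, of which 54.4% were higher. The count was 758 without the intensity trend, 691 with no filter, and 118 (without HA-TAZ 1) to 470 (without control c) when 1 library was left out. Of transcripts, 307 were called, against 120 with TPM as deposited, 1655 under the filter of 5 TPM, 108 with no filter, 156 without the trend, and 12 to 114 with 1 library left out. The 1 member transcript called became 0 with TPM as deposited, no filter, pseudocount 0.1 or no trend, and 0 to 0 with 1 library left out. Under the filter of 5 TPM it was not tested, and DDB1 ENST00000301764.7 was called in its place. In that run 1655 of 16904 tested transcripts were called. Leaving out a library leaves fewer samples and dropping the filter adds tests by construction, and otherwise the cause was not tested. The 4 ratios stayed within 1 SD under their 7 alternatives each, none of which left out ENST00000359197.5. In the authors' deposited table, 2 of the 3 member transcripts remained at q under 0.01. The IKZF1 share without exon 6 differed by −6.03 percentage points (HA-TAZ minus control) and by 3.50 without ENST00000359197.5, an alternative chosen after seeing the data. The share of the first start went from −6.48 to −1.77 points and that of the second from 5.96 to 2.84. IKZF2 had the fewest estimated counts, 386, in the authors' deposited table.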
